A study of Mus musculus with 3 samples.

Results

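The genes described here are 10 transcription factor genes known for the step from neural stem cell to glia: Sox9, Nfia, Nfib, Nfix, Rorb, Rfx4, Prdm16, Glis3, Npas3 and Lhx2. They were taken by symbol, and each of the 10 was found once among the 30559 genes of the deposited count tables, of which 24229 had at least 1 UMI (unique molecular identifier, 1 counted RNA molecule). Their UMIs were summed over all nuclei of a library and over the nuclei of each class of cell. The rule that names them is a list of symbols, chosen with earlier results of these data known. The study of these nuclei names Rorb among the markers of an astrocyte cluster that disappeared when CBP or p300 was ablated. The high Rorb level in astrocyte-like nuclei and its lower level in both ablated libraries could thus be foreseen.

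The study asked what CBP and p300, the lysine acetyltransferases encoded by Crebbp and Ep300, do in the differentiation of neural stem cells. Neurospheres were grown from the subventricular zone of newborn C57BL/6 pups, differentiated, and sampled on day 15 in vitro for single-nucleus RNA sequencing of 3 groups, labelled control, CBPf/f and p300f/f, with 1 library in each. Per the study's methods the floxed cultures received a lentivirus carrying Cre and mCherry and the control cultures one carrying RFP, transduced nuclei were sorted on that fluorescence, and each library pooled about 15 cultures. The treatment label of all 3 libraries, control included, names tamoxifen, and the line of mice behind the control cultures is not stated. Because each condition was 1 library, there is no replicate check and no test: intervals are 95% intervals for counting error only, nuclei are not replicates, and a difference between libraries cannot be told apart from a difference between the pools they came from.

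SOX9 and the nuclear factor I proteins act early in gliogenesis: SOX9 is needed for stem cells to stop producing neurons and start producing glia, and it acts together with NFIA on astrocyte genes. Several of the 10 factors are known from radial glia and the stem cells of the ventricular zone, and several remain in astrocytes. CBP and p300 are co-activators recruited by many transcription factors and acetylate histones at enhancers and promoters.

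The libraries held 4884 nuclei of the control, 3017 of the CBP-ablated and 4648 of the p300-ablated cultures, with 16312170, 12748336 and 18876682 UMIs in that order and a median of 3219, 4016 and 3902.5 UMIs per nucleus. Between 1 and 7 cell barcodes were shared by each pair of libraries. Nuclei fell into 12 clusters when the 10 genes were left out of the clustering, and 10 clusters were named as classes from marker genes, with "-like" for a name that rests on markers alone. The astrocyte-like class, with all 6 of its markers and Slc7a11, Slc6a11 and Dio2 among its leading genes, held 1278 control nuclei, 26.2% of that library, and 0 nuclei of each of the other two, so that it may be that library and not a type. By counting error alone, 0 nuclei allow a share of up to 0.0994% with CBP ablated and 0.0645% with p300 ablated. That holds for classes made by clustering and named by the marker list that passed best. With the CBP-ablated library clustered by itself, its 499 glial progenitor-like nuclei passed all 7 markers of that class. They also passed 5 of the 6 astrocyte markers, measured against the other nuclei of that library only. When each nucleus was classed by its marker scores instead, 12 nuclei with CBP ablated (0.398%) and 59 with p300 ablated (1.27%) were astrocyte-like. The name NPC/OPC-like follows the study, which described its cluster as apparently a mix of neuronal progenitors and oligodendrocyte precursors. The leading genes of that class here included Cspg4, Pdgfra and Megf11, which are known from oligodendrocyte precursors. The NPC part of its name rests on the study's label alone. The name RGC/PSC-like also follows the study, which described that cluster as apparently mixing pluripotent stem cells and/or radial glia. Its leading genes here included Anxa3, Vgll3 and Pde1a, and its name rests on the study's label. The cluster-5-like class carried 3 of the 5 markers of an immature neuron cluster of the study (Kcnj6, Nell2 among its leading genes) and is named only by that number. No cluster of the main setting was named from endothelial, mural, ependymal or fibroblast markers. Their summed levels ran from 0.742 to 99.96 CPM (UMIs scaled to a common library total) per list and library. At a clustering resolution of 1.2, a cluster of 27 nuclei passed all 6 ependymal markers and was named ependymal-like. Crebbp stood at 335, 369.5 and 365 CPM in the control, CBP-ablated and p300-ablated library and Ep300 at 114, 136 and 115. Cre removes only part of each gene, and these sums run over exons and introns, so they were not used to check the labels. The study states, from earlier work, that this Ep300 allele leaves no mature mRNA once recombined. Why Ep300 was not lower with p300 ablated was not tested.

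Promoter sequences are shown for Rorb and Rfx4, since these were the 2 genes with the lowest ratio in the CBP-ablated library. Each is the 250 bases before the first RefSeq start (GRCm38.p6), 5′ to 3′ on the strand of the gene, in lower case with matches to any of 5 searched motifs in capitals. The Rorb sequence is chr19:19111197-19111446 on the minus strand, and its capitals mark 2 GC boxes; the Rfx4 sequence is chr10:84755798-84756047 on the plus strand, and its capitals mark 1 SOX core.
Rorb: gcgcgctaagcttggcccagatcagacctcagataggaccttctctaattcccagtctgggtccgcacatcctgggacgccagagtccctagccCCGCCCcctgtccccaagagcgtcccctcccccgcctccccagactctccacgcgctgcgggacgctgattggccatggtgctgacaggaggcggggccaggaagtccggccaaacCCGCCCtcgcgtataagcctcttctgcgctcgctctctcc
Rfx4: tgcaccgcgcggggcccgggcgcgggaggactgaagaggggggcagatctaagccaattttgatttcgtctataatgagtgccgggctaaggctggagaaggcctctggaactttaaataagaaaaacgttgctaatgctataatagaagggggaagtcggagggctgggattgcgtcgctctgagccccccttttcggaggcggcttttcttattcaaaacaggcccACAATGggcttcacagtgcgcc
The motifs searched on both strands were the cAMP response element TGACGTCA, bound by CREB, a factor that recruits CBP (in 1.55% of 32851 promoters of this length), its core TGACG, which lies inside it (17.8%), the nuclear factor I core TTGGCA (12.3%), the SOX core ACAATG (10.7%) and the GC box GGGCGG (32.7%). Of the 10 genes, 8 matched the table, with 14 promoters between them; Sox9 and Nfib had no entry. The full cAMP response element and the nuclear factor I core were in none of the 14, and the TGACG core was in 1, of Lhx2. These letters are a description of the windows and say nothing of what binds there.

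Over whole libraries, 9 of the 10 genes were lower beyond counting error in the CBP-ablated than in the control library. In the p300-ablated library the largest difference was in Rorb. In the CBP-ablated library all 10 ratios were below 1 and 9 of the 10 intervals excluded equality. The share of all genes with such ratios or intervals is not given, and at high counts an interval can exclude equality for a small difference. Rorb, Rfx4 and Npas3 were at least 1.5-fold lower. With p300 ablated, 8 ratios were below and 2 above 1, and Rorb alone was at least 1.5-fold lower. In a sum over nuclei, fewer cells of a type and less RNA per cell cannot be told apart.

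**Figure D1:**
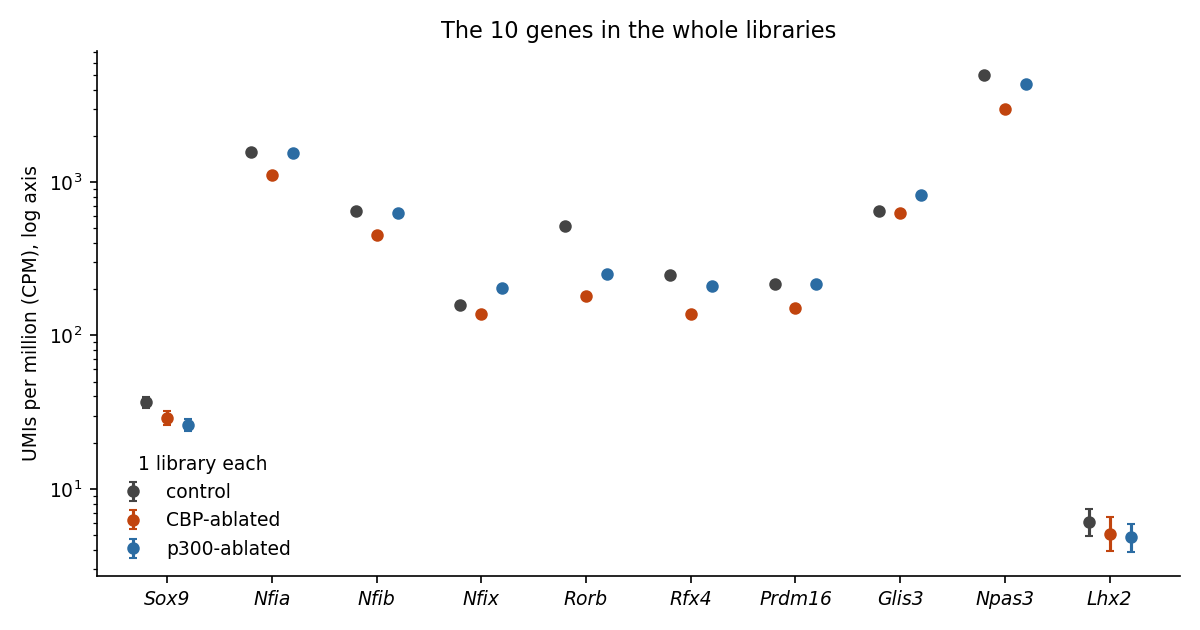
Level of each of the 10 genes in CPM (log axis) in the control, CBP-ablated and p300-ablated library. Each point is 1 library and bars are exact Poisson 95% intervals for counting error. Rorb stood at 514 CPM in the control library, 180.1 with CBP ablated and 249 with p300 ablated.

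Sox9 (ENSMUSG00000000567, chr11:112782224-112787760, plus strand, GRCm38) encodes the HMG-box factor that starts gliogenesis. It stood at 36.6 CPM in the control library, 28.9 with CBP ablated and 26.1 with p300 ablated, from 597, 369 and 493 UMIs. Its log2 ratio to control was −0.34 (−0.53 to −0.15) with CBP ablated and −0.49 (−0.66 to −0.31) with p300 ablated. Taken as the median over classes of nuclei, the first of these was 0.33. Sox9 and Lhx2 were the 2 genes whose level in the CBP-ablated library was not below that of the p300-ablated one.

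The nuclear factor I genes encode related DNA-binding proteins that stem cells switch on at the start of gliogenesis. Nfia (chr4:97772734-98118874, plus strand) stood at 1559.5 CPM in the control library, 1114 with CBP ablated and 1544.5 with p300 ablated. Nfib (chr4:82290173-82705750, minus strand) stood at 643, 452 and 624 CPM in the same order. Nfix (chr8:84699876-84800344, minus strand), which is linked to the quiescence of stem cells, stood at 159, 137 and 203 CPM. All 3 were lower in the CBP-ablated library, with log2 ratios to control of −0.49 for Nfia, −0.51 for Nfib and −0.21 for Nfix. With p300 ablated, Nfia and Nfib were near the control, at −0.01 and −0.04, and Nfix was higher, at 0.35 (0.28 to 0.43).

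Rorb (ENSMUSG00000036192, chr19:18930605-19111196, minus strand) encodes the orphan nuclear receptor RORβ, also known from layer IV neurons and the retina. Its 514 CPM in the control library came from 8385 UMIs, its 180.1 CPM in the CBP-ablated library from 2296 and its 249 CPM in the p300-ablated library from 4707. The control library was thus 2.85-fold above the CBP-ablated and 2.06-fold above the p300-ablated library, with log2 ratios of −1.51 (−1.58 to −1.45) and −1.04 (−1.10 to −0.99). These were the lowest ratios of the 10 genes in both comparisons, which share the control library. Rfx4 (ENSMUSG00000020037, chr10:84756062-84906538, plus strand) encodes a winged-helix factor of the RFX family known for cilia formation in the developing brain. It stood at 247 CPM in the control library, 138 with CBP ablated and 209 with p300 ablated, with log2 ratios of −0.84 (−0.93 to −0.76) and −0.24 (−0.31 to −0.18).

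Prdm16 (chr4:154316125-154636873, minus strand) encodes a PR-domain zinc finger protein that maintains radial glia and neural stem cells. It stood at 216 CPM in the control library, 151 with CBP ablated and 215 with p300 ablated, with log2 ratios of −0.52 (−0.60 to −0.44) and −0.01 (−0.07 to 0.06). Glis3 (chr19:28258851-28680077, minus strand), a GLI-similar zinc finger gene best known from the pancreas and thyroid, stood at 651, 627 and 820.0 CPM. It was the gene closest to control in the CBP-ablated library, at −0.05 (−0.10 to −0.01), and higher in the p300-ablated library, at 0.33 (0.30 to 0.37). The first of these was 0.004 with each nucleus counted alike.

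Npas3 (chr12:53248677-54072175, plus strand), which encodes a basic helix-loop-helix PAS factor of neural progenitors, stood at 4977 CPM in the control library, 2992 with CBP ablated and 4344 with p300 ablated. Its log2 ratios were −0.73 (−0.75 to −0.72) and −0.20 (−0.21 to −0.18). Lhx2 (chr2:38339281-38369733, plus strand), a LIM-homeodomain gene of cortical progenitors that is known to hold back astrocyte formation, was counted with only 99 UMIs in the control library, 65 with CBP ablated and 91 with p300 ablated. Its 6.07, 5.10 and 4.82 CPM did not differ beyond counting error, with log2 ratios of −0.25 (−0.73 to 0.21) and −0.33 (−0.76 to 0.09), and the first was 0.28 as the median over classes. Levels were not compared between genes, because UMIs from introns grow with the length of a gene and these run from 5.537 kb (Sox9) to 823.499 kb (Npas3).

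Against control, 3 of the 10 genes were at least 1.5-fold lower in the CBP-ablated library, beside 9.97% of all 11883 genes with at least 100 UMIs, and 0 were at least 1.5-fold higher, beside 7.9%. By the median over classes, 1 of the 10 was at least 1.5-fold lower. Their median log2 ratio was −0.50, and that of all genes 0.06. With p300 ablated, 1 of 10 was at least 1.5-fold lower, beside 7.77% of 12247 genes, and 0 were higher, beside 4.37%; the median was −0.12, and that of all genes −0.03. A share of 1 in 10 is near the background of the p300 comparison, and it was 0 by the median over classes. Between the ablated libraries, Rfx4 alone was at least 1.5-fold lower in the CBP-ablated than in the p300-ablated one, at −0.60 (−0.68 to −0.52), beside 8.03% of 11956 genes. There 8 of 10 ratios were below 0, each with its interval, and the median was −0.47, and that of all genes 0.10. With ratios centred on the median of all genes, 4 of the 10 passed 1.5-fold. The share of all genes is not given for the centred ratios or for intervals below 0, so neither count can be read against it.

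The 10 genes were concentrated in the RGC/PSC-like, glial progenitor-like and astrocyte-like nuclei and low in the oligodendrocyte lineage, with the partial exception of the nuclear factor I genes and Npas3. Summed over the 3 libraries, Sox9, Nfia, Nfix, Rfx4 and Prdm16 were highest in glial progenitor-like nuclei, Nfib, Glis3 and Lhx2 in RGC/PSC-like nuclei, and Rorb and Npas3 in astrocyte-like nuclei. The highest class was the same for each gene under 9 of 9 other clusterings, marker scores and corrections. In the control library alone Nfib was highest in neuron-like nuclei instead, at 1107 CPM beside 1090 in RGC/PSC-like nuclei, with overlapping intervals. In the 2 unnamed clusters, of 472 and 177 nuclei, Rorb stood at 518 and 328 CPM and Prdm16 at 227 and 314. Levels across classes are a description; the genes were not used for clustering, but genes that move with them were.

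**Figure D2:**
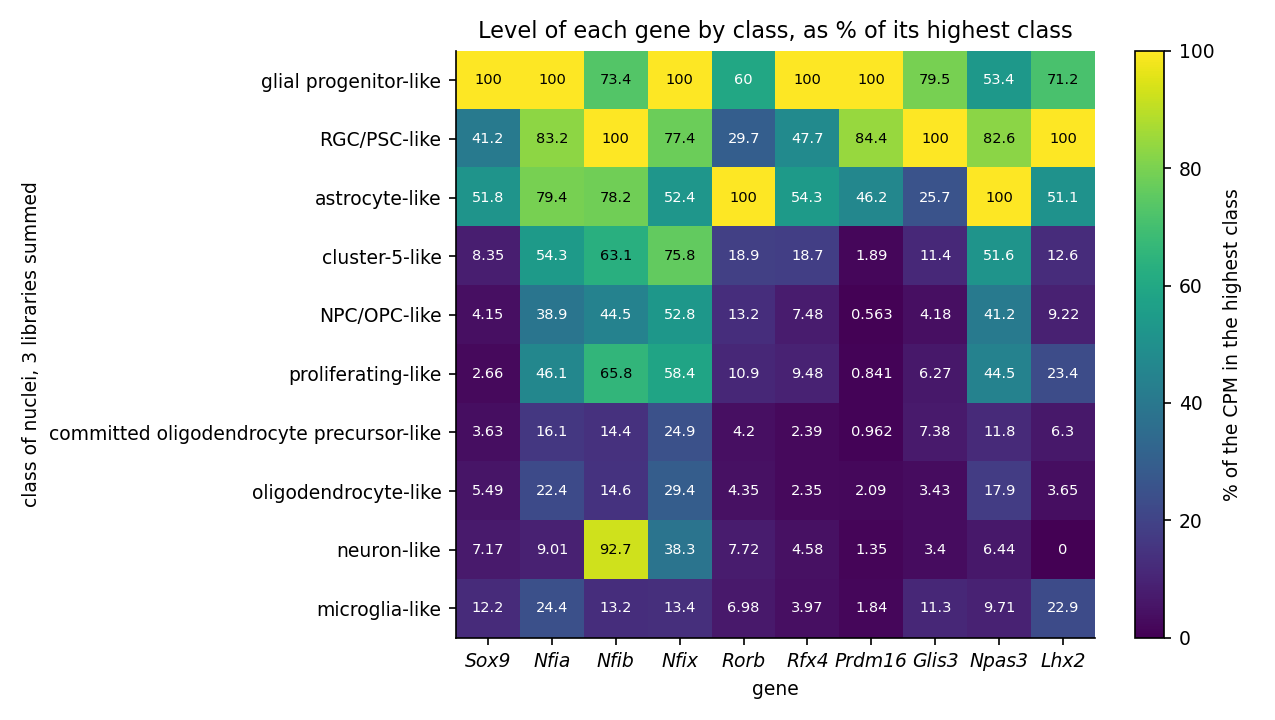
Level of each gene in each named class of nuclei, the 3 libraries summed, as a percent of the class with the highest CPM of that gene. Prdm16 was high in only 3 of the named classes, with NPC/OPC-like nuclei at 0.563% of its highest class, while Nfib reached neuron-like nuclei.

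Sox9 stood at 124 CPM (114 to 135) in glial progenitor-like, 64.3 (56.6 to 72.7) in astrocyte-like and 51.2 (45.8 to 57.0) in RGC/PSC-like nuclei, and at 15.1 CPM or less in the other named classes. The microglia-like nuclei, which belong to another lineage, were taken as the level that free RNA can reach: for Sox9 this was 17.5 CPM in the control library, from 5 UMIs. Sox9 outside its 3 highest named classes was therefore read as background. In the control library alone the RGC/PSC-like interval of Sox9 (37.7 to 59.7 CPM) also overlapped the microglia-like one (5.70 to 40.9 CPM).

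Nfia reached 2769 CPM in glial progenitor-like, 2303 in RGC/PSC-like and 2198 in astrocyte-like nuclei. It was also present in cluster-5-like nuclei, at 1504 CPM, and lowest in neuron-like nuclei, at 249 CPM. Nfib was highest in RGC/PSC-like nuclei, at 1056 CPM (1031 to 1082), and nearly as high in neuron-like nuclei, at 979.7 (925 to 1036), with overlapping intervals. It was the only one of the 10 genes with a neuron-like level near its highest. Nfix was spread over many classes, with 296 CPM in glial progenitor-like, 229 in RGC/PSC-like, 224 in cluster-5-like, 156 in NPC/OPC-like and 155 in astrocyte-like nuclei, the last from the control library only. In that library alone the order was another, with 238 CPM in cluster-5-like and 212 in RGC/PSC-like nuclei (overlapping intervals) and with 155 in astrocyte-like and 134 in NPC/OPC-like nuclei.

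Rorb was highest in astrocyte-like nuclei, at 1217 CPM (1182 to 1252), followed by glial progenitor-like nuclei at 729.6 (706 to 754) and RGC/PSC-like nuclei at 362 (347 to 377). It stood at 229.6 CPM in cluster-5-like, 160.5 in NPC/OPC-like and 52.9 in oligodendrocyte-like nuclei, with 85.0 in microglia-like nuclei. Rfx4 had another order, with 761 CPM (736 to 786) in glial progenitor-like, 413 (394 to 434) in astrocyte-like and 362 (348 to 378) in RGC/PSC-like nuclei, and 17.8 in oligodendrocyte-like nuclei.

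Prdm16 was the most sharply bounded gene, at 719.9 CPM in glial progenitor-like, 608 in RGC/PSC-like and 332 in astrocyte-like nuclei and 15.0 CPM or less in each of the other named classes. Glis3 stood at 2432 CPM in RGC/PSC-like and 1934 in glial progenitor-like nuclei and at 625 in astrocyte-like nuclei; its 278 CPM in cluster-5-like nuclei and 274 in microglia-like nuclei had overlapping intervals. Npas3 reached 8872 CPM in astrocyte-like, 7329 in RGC/PSC-like, 4738 in glial progenitor-like and 4577 in cluster-5-like nuclei, and was lowest in neuron-like nuclei, at 572 CPM. Lhx2 stood at 16.5 CPM (13.5 to 19.96) in RGC/PSC-like, 11.7 (8.87 to 15.3) in glial progenitor-like and 8.42 (5.79 to 11.8) in astrocyte-like nuclei. Neighbours in that order overlap, and neuron-like nuclei had 0 UMIs of Lhx2, which allows up to 2.99 CPM.

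To count detection at equal depth, each nucleus was thinned to 1500 UMIs and shallower nuclei were left out, which kept 4636, 2922 and 4513 nuclei. A UMI of Rorb was found in 40.0% of the control, 18.4% of the CBP-ablated and 24.3% of the p300-ablated nuclei, and without thinning in 52.5%, 30.5% and 41.2%. In the control library the share was 71.8% in astrocyte-like and 56.6% in glial progenitor-like nuclei and 7.81% in microglia-like nuclei, of which only 64 of 183 were deep enough (median depth 1134 UMIs, against 2992 in astrocyte-like nuclei). Rfx4 was found in 67.0% and Prdm16 in 61.8% of glial progenitor-like nuclei, each with 3.12% in microglia-like nuclei. Sox9 was found in 15.3% of glial progenitor-like nuclei and 4.69% of microglia-like nuclei. For Nfia and Npas3 the microglia-like nuclei with a UMI were 34 and 32 of the 64. Presence of a UMI thus separated cell types poorly for these genes.

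Glial progenitor-like nuclei held the most of the 10 genes at once. At equal depth, a glial progenitor-like nucleus had a UMI of 5.82 of them on average in the control library, 5.59 with CBP ablated and 5.74 with p300 ablated. RGC/PSC-like nuclei had 5.35, 5.08 and 5.38, astrocyte-like nuclei 4.92, NPC/OPC-like nuclei 2.78, 2.65 and 2.82, and oligodendrocyte-like nuclei 1.83, 1.68 and 2.10, near the 1.64 of control microglia-like nuclei. Over all nuclei the mean was 3.88 in the control library, 2.95 with CBP ablated and 3.64 with p300 ablated. Nuclei with at least 5 of the 10 genes made up 38.1% of the control, 22.9% of the CBP-ablated and 30.002% of the p300-ablated library. Glial progenitor-like and RGC/PSC-like nuclei thus differed less between libraries than all nuclei together. Part of this likeness may be built in, since nuclei were classed by genes that move with the 10.

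**Figure D3:**
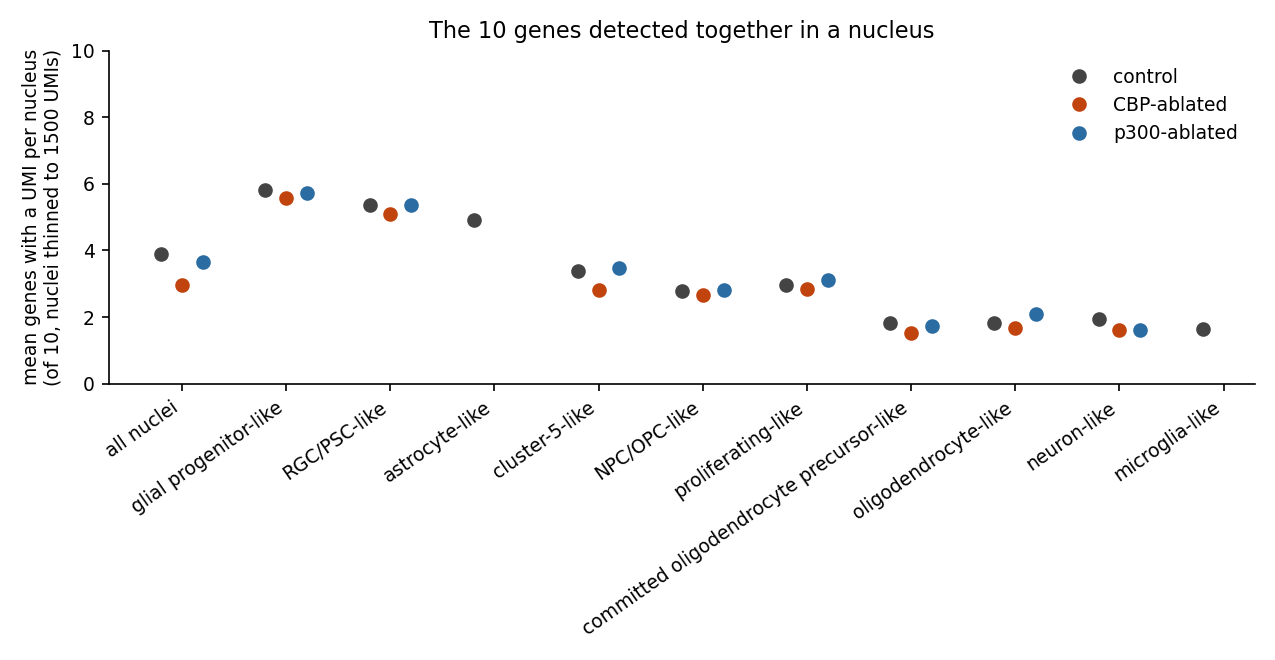
Mean number of the 10 genes with at least 1 UMI per nucleus, each nucleus thinned to 1500 UMIs, by class and library. Glial progenitor-like and RGC/PSC-like nuclei stayed between 5.08 and 5.82 genes in all 3 libraries, and all nuclei together ran from 2.95 to 3.88.

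The libraries held different classes, and the 10 genes were spread unevenly over them. Astrocyte-like nuclei carried 24.0% of the UMIs of the control library but 56.9% of its Rorb UMIs, 42.9% of its Npas3, 42.2% of its Sox9, 40.2% of its Rfx4 and 37.0% of its Prdm16 UMIs. Nfix and Glis3, at 23.4% and 23.1%, were carried there in proportion. In the CBP-ablated library glial progenitor-like nuclei, with 11.0% of the UMIs, carried 52.8% of the Rfx4, 50.1% of the Sox9, 49.0% of the Prdm16 and 47.7% of the Rorb UMIs. The CBP-ablated library also held more of the nuclei where the genes were low: committed oligodendrocyte precursor-like nuclei made up 20.2% of it and oligodendrocyte-like nuclei 16.1%, against 8.66% and 3.28% of the control and 5.16% and 4.15% of the p300-ablated library. The p300-ablated library was 38.4% NPC/OPC-like, against 21.6% of the control and 13.0% of the CBP-ablated library.

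With the astrocyte-like nuclei left out of the control library, Rorb alone stayed at least 1.5-fold lower in the CBP-ablated library, 1 of 10 beside 7.17% of genes. Rorb then stood at 292 CPM in the control library and its log2 ratio was −0.70 (−0.77 to −0.62), or −0.57 with 10% of each class taken as free RNA. That correction takes away less than the level of Rorb in microglia-like nuclei. Rfx4 stood at 195 CPM with a log2 ratio of −0.50 (−0.59 to −0.41), and Npas3 at 3744 CPM with −0.32 (−0.34 to −0.30). Sox9 went from −0.34 to 0.06 (−0.16 to 0.27). Of the 10 ratios 9 were below 0, 8 with their interval, and the median was −0.27, and that of all genes 0.07. With p300 ablated, 0 of 10 were then at least 1.5-fold lower, beside 4.11% of genes, and 7 ratios were above 0, each with its interval: Nfia at 0.19, Nfib at 0.09, Nfix at 0.34, Rfx4 at 0.10, Prdm16 at 0.26, Glis3 at 0.31 and Npas3 at 0.21. Rorb stayed below, at −0.23 (−0.29 to −0.16), and the median of the 10 was 0.14, beside −0.01 for all genes. The share of all genes with an interval on one side of 0 is not given for these comparisons.

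Each whole-library ratio was also split, by a calculation added after these results were seen, into the part that control levels within each cluster would give with the makeup of the ablated library, and the rest, the part of levels within clusters. The astrocyte-like class had 0 nuclei in both ablated libraries, so its whole share falls to makeup by construction. A change of level in those cells could not appear in the within-class part. For Rorb with CBP ablated the makeup part was −1.07 of −1.51 and the within-class part −0.44. With p300 ablated they were −0.79 and −0.26 of −1.04. For Npas3 in the CBP-ablated library the makeup part was −0.67 of −0.73, and for Rfx4 the parts were −0.51 and −0.33. For Sox9 in the CBP-ablated library the parts had opposite signs, at −0.57 and 0.23. Makeup gave a part below 0 for all 10 genes with CBP ablated and for 8 of 10 with p300 ablated, where Nfix (0.07 and 0.28) and Glis3 (0.13 and 0.20) had both parts above 0. Over 7 clusterings the makeup part of Rorb ran from −1.15 to −1.06 and from −0.79 to −0.68, and that of Nfix with p300 ablated from −0.03 to 0.10.

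**Figure D4:**
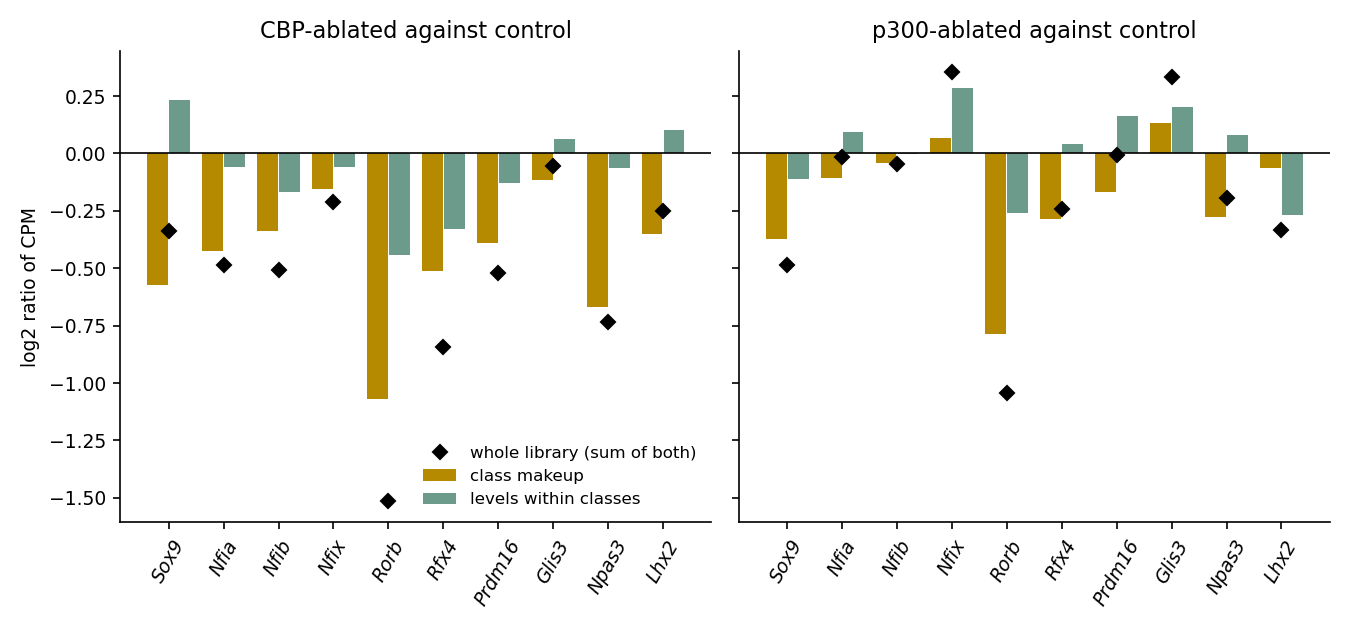
Log2 ratio to control of each gene over whole libraries, split into the part from class makeup and the part from levels within classes, with 1 panel for each ablated library. Bars are the 2 parts and diamonds their sum; the makeup part of Rorb, −1.07 with CBP ablated and −0.79 with p300 ablated, was the lowest of the 10 genes in both.

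Within glial progenitor-like nuclei no gene with enough UMIs was past 1.5-fold from control in either ablated library. Of the 9 genes with at least 100 UMIs there, 0 were past 1.5-fold with CBP ablated, beside 10.7% of genes, and 0 with p300 ablated, beside 7.75%. For 9 genes, 0 is near these shares. With CBP ablated 2 of the 9 intervals were below 0 and 2 above it, and with p300 ablated 3 were above it. Rorb stood at 702 CPM in the control library, 781 with CBP ablated and 712 with p300 ablated, and Sox9 at 120, 132 and 121. Rorb thus had a log2 ratio of 0.15 (0.03 to 0.28) with CBP ablated, which turned to −0.09 with each library clustered by itself. Rfx4 was the lowest, at 793, 662 and 808 CPM and a log2 ratio of −0.26 (−0.39 to −0.13) in the CBP-ablated library. Nfix was the highest in the p300-ablated library, at 249, 280.2 and 338 CPM and 0.44 (0.25 to 0.63). Npas3, at 4708, 4795 and 4718 CPM, and Nfib, at 783, 751 and 786 CPM, had intervals from −0.02 to 0.08 and from −0.19 to 0.06 with CBP ablated. Lhx2, with 13, 21 and 22 UMIs, could not be resolved there (−0.41 to 1.78).

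In RGC/PSC-like nuclei Rorb had the lowest ratio to control in the CBP-ablated library. Rorb stood at 453 CPM in the control library, 281 with CBP ablated and 355 with p300 ablated, with log2 ratios of −0.69 (−0.86 to −0.52) and −0.35 (−0.49 to −0.22). It was the 1 of 9 genes past 1.5-fold with CBP ablated, beside 8.73% of genes (0 at a clustering resolution of 1.2, where Rorb was at −0.56). With p300 ablated 0 of 9 were past it, beside 4.73% (1 at a resolution of 0.3). Nfib, at −0.21, Rfx4, at −0.21, and Nfia, at −0.09, also had intervals below 0 with CBP ablated. Sox9 was higher in the CBP-ablated library, at 47.7, 67.7 and 44.9 CPM and 0.50 (0.07 to 0.95), though its control interval there overlapped that of microglia-like nuclei. Prdm16 stood at 555, 492 and 690.0 CPM, with log2 ratios of −0.17 (−0.31 to −0.03) and 0.31 (0.20 to 0.43). Glis3, at 2363, 2379.6 and 2492 CPM, and Npas3, at 6727, 7292 and 7649 CPM, differed from control by less than 0.2 on the log2 scale.

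The cluster-5-like class, counted after its values were seen, had lower ratios of Rorb and Rfx4 with CBP ablated than glial progenitor-like and RGC/PSC-like nuclei. For Rorb its interval overlapped that of RGC/PSC-like nuclei. The share of all genes past 1.5-fold was 10.7% in glial progenitor-like and 8.73% in RGC/PSC-like nuclei. In cluster-5-like nuclei 3 of 7 genes with at least 100 UMIs were past 1.5-fold and lower, Rorb, Rfx4 and Glis3, beside 23.3% of genes past it in either direction. Rorb stood at 281, 145 and 238 CPM, with log2 ratios of −0.95 (−1.24 to −0.67) and −0.24 (−0.44 to −0.04). Rfx4 stood at 161, 85.5 and 158 CPM, and Nfia at 1560.1, 1131 and 1655. Glis3, at 229, 139 and 381 CPM, was lower with CBP ablated at −0.71 (−1.01 to −0.42) and higher with p300 ablated at 0.74 (0.54 to 0.93), the 1 of 7 genes past 1.5-fold there, beside 7.01%. Control microglia-like nuclei, at 302 CPM of Glis3, held no less than the control nuclei of this class. This class kept at least 50 CBP-ablated nuclei in only 4 of 9 other clusterings and corrections. With CBP ablated, Rorb (−1.08) and Rfx4 (−1.64) were lower still in committed oligodendrocyte precursor-like nuclei, where both control levels overlapped those of microglia-like nuclei. The median of 6 genes there was −0.43, beside 0.11 for all genes. Of these 6, only Nfix and Npas3 had a control level there above the microglia-like one. In neuron-like nuclei the median of 3 genes, Nfia, Nfib and Npas3, was −0.86, beside 0.05. Of these 3, only Nfib had a control level above the microglia-like one. Nfia stood at 367 beside 688 CPM, and Npas3 at 808 beside 776 CPM with overlapping intervals. In the remaining named classes the median ran from −0.24 (proliferating-like) to 0.07 (microglia-like).

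**Figure D5:**
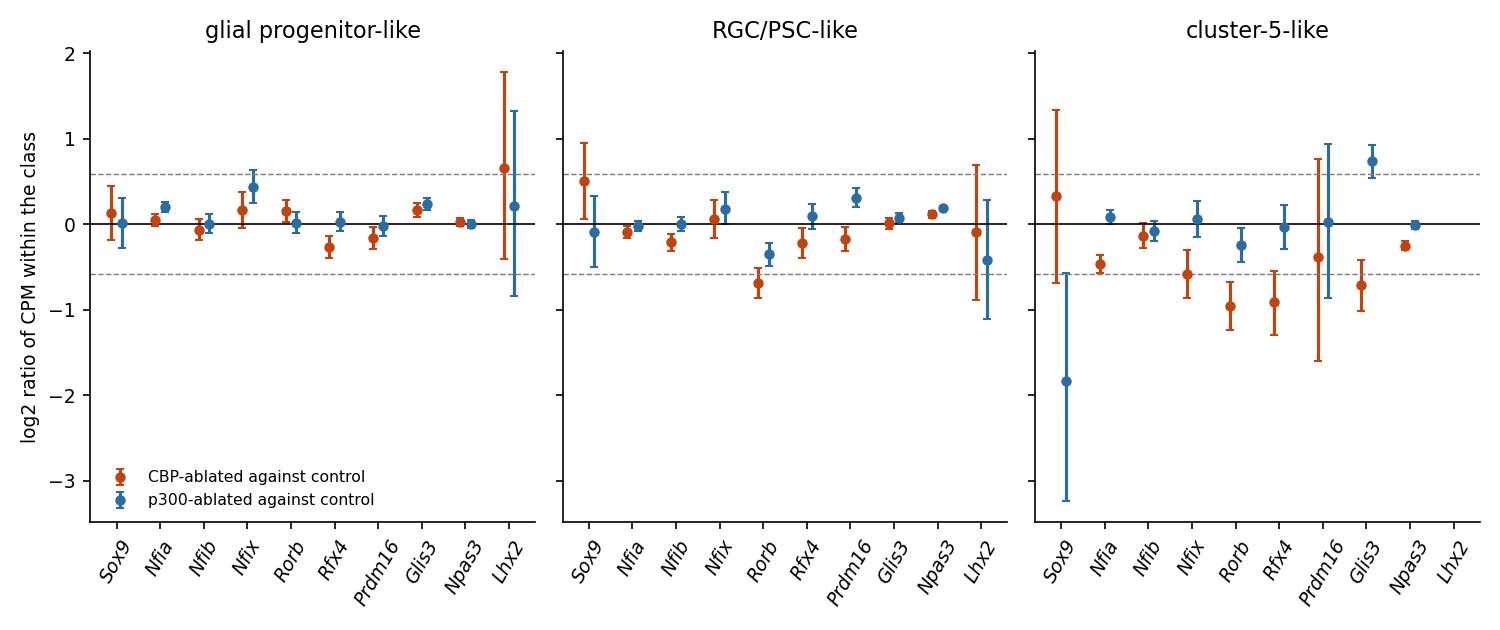
Log2 ratio to control of the genes within 3 classes of nuclei, with points for each ablated library, bars for conditional binomial 95% intervals of counting error and dashed lines at 1.5-fold. Rorb was below 0 in RGC/PSC-like and cluster-5-like nuclei and not in glial progenitor-like nuclei (0.15 with CBP ablated, −0.09 with each library clustered by itself).

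Rorb was below control in 8 of 9 classes in each ablated library, but its control level exceeded that of microglia-like nuclei (91.2 CPM, 26 UMIs) in only 5 classes, of which 4 could be compared. Of these, 3 were below 0 with their interval in each ablated library, among them NPC/OPC-like nuclei at 178, 132 and 157 CPM. With 10% of each class taken as free RNA, NPC/OPC-like Rorb went from −0.43 to −0.15 with CBP ablated and from −0.18 to 0.07 with p300 ablated, RGC/PSC-like Rorb to −0.61 and −0.28 and cluster-5-like Rorb to −0.85 and −0.11. The microglia-like level of 91.2 CPM, beside 514 over the whole control library, is more than this 10% takes away. Larger corrections were not run. Between the ablated libraries, Nfix and Rfx4 were lower in the CBP-ablated one in 8 of 8 classes each, 6 and 5 of them with their interval, classes at the background included.

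Across the 33 sums of a class in a library with at least 50 nuclei, the 10 genes followed each other to differing degrees. These sums share libraries and depth and some share cell types, so the correlations of log2(CPM + 1) are a description. Rorb and Rfx4 were the closest pair (r = 0.94), then Nfia and Npas3 (0.93), then Glis3 and Prdm16 (0.89), and Nfib and Sox9 the least alike (0.44). In the control library alone this order changed. There Prdm16 and Sox9 were the closest pair (0.9358), just ahead of Glis3 and Prdm16 (0.9357) and then Rorb and Rfx4 (0.9349). Nfix and Lhx2 were then the least alike (0.27), with Nfib and Sox9 at 0.52. Among 8521 genes, the most like Rorb were Rfx4, Acsbg1 (0.93), which encodes an acyl-CoA synthetase, and Bmpr1b, a BMP receptor (0.93), and the most like Rfx4 were Acsbg1 (0.95), Rorb and Arhgef4. The most like Prdm16 were Ddo (0.96), Gli2 (0.95), which encodes a Hedgehog effector, and Ccdc136. The most like Glis3 were Pard3b (0.96), a polarity gene, Palld (0.96) and Pdgfd. The most like Sox9 were Mlc1 (0.90), a membrane protein of astrocyte endfeet, Tmem47 and Kctd5, and the most like Npas3 were Nfia, Zfp521 and Mapk10. The most like Nfib were C130071C03Rik (0.96), Zfp423 (0.96) and Wnt7a, the most like Nfix Mtcl1 (0.90), Celsr2 and Clip4, and the most like Lhx2, of low count, Vstm4, Cyp4f17 and Ccdc162 (each 0.83). After Npas3 and Acsbg1, Nfia was most like E130114P18Rik (0.92), a gene on the opposite strand within its bounds. These neighbours depended on the sums used: over the 12 sums of the control library alone, 2 of the 3 stayed for Glis3, 1 of 3 each for Nfib, Rfx4 and Lhx2, and 0 of 3 for each of the other genes.

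Paralogs of the 10 genes had no common direction. Of 20 paralogs, 14 had at least 100 UMIs; 1 was at least 1.5-fold lower in the CBP-ablated library and 2 were higher, beside 9.97% and 7.9% of all genes, with a median log2 ratio of 0.01. Npas2 was lower, at 18.1 against 73.4 CPM in the control (−2.02), and Rora, the paralog of Rorb, stood at 1676 against 2475 CPM (−0.56). Sox10, the SOX factor of oligodendrocytes, was higher, at 304 against 183 CPM (0.73), as was Npas1, at 5.49 against 1.90 CPM (1.53). With p300 ablated 1 paralog was lower, Npas2 (−1.60), and 1 higher, Npas1 (1.68), beside 7.77% and 4.37%, while Sox8 was at −0.31 and Rfx2 at 0.53; the median was 0.18. Outside the astrocyte-like nuclei 7.17% of all genes were lower and 6.05% higher with CBP ablated, and 4.11% lower and 2.31% higher with p300 ablated; of the paralogs 0 of 13 passed 1.5-fold with CBP ablated, and 1 of 14 was lower and 1 higher with p300 ablated.

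Other regulators of radial glia and astrocytes were in part lower in the CBP-ablated library: 7 of 26 were at least 1.5-fold lower and 2 higher, beside 9.97% and 7.9% of all genes, with a median of −0.32, and 4 of 23 were lower outside the astrocyte-like nuclei, beside 7.17%. Dbx2, a homeobox gene of progenitors, was at −1.89 (30.5 against 113 CPM), whereas Zeb2 was at 0.70 (1817 against 1117 CPM) and Runx2 at 0.63. With p300 ablated 2 of 26 were lower, Klf15 (−1.11) and Gli3 (−0.67), beside 7.77%, and 0 higher, with Hes1 at 0.50 and Stat3 at 0.33, and outside the astrocyte-like nuclei 0 were lower and 1 was higher. Astrocyte genes that take input from NFIA or SOX9 in earlier work were lower in 7 of 11 cases in the CBP-ablated library, beside 9.97% of all genes, with a median of −0.78. The list overlaps the markers that named classes: Slc1a3 for astrocyte-like, Gfap and Aqp4 for glial progenitor-like nuclei. Their ratios outside the astrocyte-like nuclei are thus not independent of the naming. Hes1 is also among the regulators above, and Sox10 is both a paralog and an oligodendrocyte lineage factor here. Aldh1l1, a folate enzyme used as an astrocyte marker, stood at 14.4 against 44.1 CPM (−1.62) and Slc4a4, a bicarbonate transporter, at 623 against 1382 CPM (−1.15), whereas Gfap, the astrocyte intermediate filament, was the 1 gene higher, at 152 against 83.9 CPM (0.86), and Ezr was at 0.20. Of these 11, 4 were lower in the p300-ablated library, beside 7.77%, among them Fgfr3 (−1.07) and Aldh1l1 (−1.05), with Zcchc24 at 0.52. Outside the astrocyte-like nuclei 3 of 9 were lower and 1 higher in the CBP-ablated library, beside 7.17% and 6.05%, and 0 of 11 lower and 1 higher in the p300-ablated library, beside 4.11% and 2.31%.

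Of 13 oligodendrocyte lineage factors 8 were at least 1.5-fold higher and 1 lower in the CBP-ablated library, beside 7.9% and 9.97% of all genes, with a median of 0.73: Zfp536 stood at 858 against 225 CPM (1.93) and Myrf, which drives myelin genes, at 73.0 against 20.5 CPM (1.83), while Sox5 was at −0.61 and Olig1 at −0.35. Outside the astrocyte-like nuclei 6 of 13 were higher and 1 lower with CBP ablated, beside 6.05% and 7.17%, and 0 were higher and 1 lower with p300 ablated, beside 2.31% and 4.11%. With p300 ablated 0 of 13 passed 1.5-fold in either direction, with Sox10 at 0.42, Nkx6-2 at 0.38, Myrf at −0.33 and Olig1 at −0.37. Of the neurogenic factors only 10 of 24 were counted with 100 UMIs or more; in the CBP-ablated library 2 were lower, among them Sox11 (−0.67), and 2 higher, Bcl11a (1.57) and Sp9 (0.76), beside 9.97% and 7.9% of all genes. In the p300-ablated library 1 of 9 was lower, Sox11 (−0.82), beside 7.77%, with Sox4 at −0.42, Myt1 at 0.48 and Myt1l at 0.41. Outside the astrocyte-like nuclei 1 of 9 was lower and 1 higher with CBP ablated, beside 7.17% and 6.05%, and 3 of 9 were lower with p300 ablated, beside 4.11%. The medians of the neurogenic list over whole libraries were −0.11 and −0.30.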

How the data were processed

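The authors sequenced nuclei on the 10x platform and, per the submitters' processing notes, used FastQC 0.11.9, Cell Ranger 3.1 and Seurat 2.3.4 with GRCm38. The authors deposited 1 table of raw counts per library (UMIs per gene and nucleus, over exons and introns, not normalized), and all its nuclei were kept; the fewest UMIs in a nucleus were 500. The 10 genes, the marker genes and the gene lists were chosen with earlier results of these data known.

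Clusters came from Seurat 5.3.0 (R 4.3.3, Matrix 1.6.5, seed 1), with the 1000 most dispersed genes of each library joined and the 10 genes left out of them, 20 components, resolution 0.6. A cluster took a name where at least 60% and at least 3 of a list's markers were in 10% of its nuclei and 2-fold above other nuclei, limits set after the clusters were seen; the markers came in part from these libraries. Scrublet (scanpy 1.11.5) called 191, 73 and 173 doublets, which were kept and left out as an alternative. UMIs were summed by library or class and divided by the sum of all genes (CPM). With 1 library per group no test was run; intervals are exact Poisson, Clopper-Pearson or conditional binomial at 95%. Ratios used genes with 100 UMIs or more in the compared libraries together, or 20 for the 10 genes within classes of at least 50 nuclei, and 1.5-fold as the limit. Python 3.11.15, numpy 2.4.6, scipy 1.17.1, pandas 2.3.3 and matplotlib 3.10.9 were used, and the ratio step was tested on simulated data. Named genes are the 10 genes, the 2 highest and 2 lowest ratios of each list and the 3 genes most like each of the 10, of which some list genes are not reported here. Gene positions are of GENCODE M21, and promoters of RefSeq. Alternatives changed the gene filter, scaling, weighting of nuclei, depth, doublets, clustering, naming and free RNA.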

Additional observations from a re-analysis of the deposited data

Results flagged for a closer look

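For 3 genes the ratio to control was at least 1.5-fold lower in one class and at least 1.5-fold higher in another, each with an interval that left out 0. The share of all genes with such opposite ratios is not given, so this count cannot be read against it. The difference between classes was not tested, since each condition is 1 library. Nfia, Rorb and Npas3 also had intervals on both sides of 0, but not past 1.5-fold in both directions. Sox9 in the p300-ablated library was at −1.04 on the log2 scale in NPC/OPC-like nuclei (28 UMIs against 29 in the control) and at −1.83 in cluster-5-like nuclei (8 against 19), but at 2.25 in oligodendrocyte-like nuclei (20 against 3). Nfix in the CBP-ablated library was at −0.85 in neuron-like nuclei (50 against 47) and at 1.46 in microglia-like nuclei (10 against 10). The lower bound of the latter was 0.04, and microglia-like nuclei are the class taken as the level that free RNA can reach. Glis3 in the CBP-ablated library was at −0.71 in cluster-5-like nuclei (140 against 305) and at 1.04 in oligodendrocyte-like nuclei (267 against 37).

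In the control library Sox9 stood at 8.28 CPM in NPC/OPC-like, 14.2 in cluster-5-like and 3.55 in oligodendrocyte-like nuclei, beside 17.5 in microglia-like nuclei. Glis3 stood there at 229 CPM in cluster-5-like and 43.8 in oligodendrocyte-like nuclei, beside 302 in microglia-like nuclei. With 5% of each class taken as free RNA the ratios grew: Glis3 with CBP ablated went to −0.86 in cluster-5-like and 2.39 in oligodendrocyte-like nuclei, Sox9 with p300 ablated to −1.24 in NPC/OPC-like, −2.21 in cluster-5-like and 3.17 in oligodendrocyte-like nuclei, and Nfix with CBP ablated to −0.90 in neuron-like and 1.72 in microglia-like nuclei. With 10% Glis3 in cluster-5-like nuclei was at −1.09, and no ratio was left for Glis3 or Sox9 in oligodendrocyte-like nuclei. Both corrections take away less than the microglia-like levels. For Glis3 and Sox9 these were 302 and 17.5 CPM, beside 651 and 36.6 over the whole control library.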

How the results depend on the processing

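Over whole libraries, the count of genes at least 1.5-fold lower in the CBP-ablated than in the control library went from 3 to 1 at 2-fold and to 1 by the median over classes, and in the p300-ablated library from 1 to 0 by the median over classes. Between the ablated libraries the 1 gene became 4 with ratios centred on the median of all genes, and 0 with each nucleus counted alike, at 2-fold and by the median over classes. The share of all genes under these alternatives is not given. Outside the astrocyte-like nuclei the 1 gene in the CBP-ablated library became 0 at 2-fold and with 10% free RNA. In RGC/PSC-like nuclei the count went from 1 to 0 in the CBP-ablated library at resolution 1.2, and from 0 to 1 in the p300-ablated library at resolution 0.3. The cause was not tested for any of these. The counts in glial progenitor-like nuclei and that of the p300-ablated library outside the astrocyte-like nuclei kept their value under every alternative run. In cluster-5-like nuclei the 3 genes with CBP ablated became 2 to 4 in the 4 alternatives that kept the class. Of single ratios, 168 of 180 over whole libraries, 198 of 200 outside the astrocyte-like nuclei, 152 of 162 in glial progenitor-like, 155 of 162 in RGC/PSC-like and 62 of 77 in cluster-5-like nuclei kept their direction; Sox9 in the CBP-ablated library went from −0.34 to 0.33 by the median over classes. The median of the 10 genes ran from −0.55 to −0.12 in the CBP-ablated and from −0.15 to 0.01 in the p300-ablated library. No paired analysis was possible because each condition has 1 library. Depth limits Lhx2 in every class and Sox9 outside its 3 highest classes.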
